A study of Caenorhabditis elegans with 18 samples.

Results

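The mitochondrial respiratory chain and the ATP synthase are built largely from nuclear genes, and 58 of the 23368 genes in the count table encode proteins of complexes I, II, IV and V under the names nuo, nduf, nduv, ndua, ndub, sdha, sdhb, sdhc, sdhd, cox, atp, asb and asg, with gas-1 added. They were chosen by these names, and the choice was made with earlier results of these data known. Genes of the mitochondrial genome were to be excluded, but none in the count table carried one of these names, so none was left out. Complex I has 30 of them, complex II 4, complex IV 15 and complex V 9. The names do not cover the whole of each complex, so genes under other names are given as separate lists further on for complexes I, IV and V. No list of further complex II genes was made, and no gene of the 58 has an sdhc name, so complex II is described in part only.

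Whole early adult Caenorhabditis elegans of 3 genotypes were profiled by RNA sequencing: the reference strain N2 (WT), the nuclear hormone receptor mutant nhr-45(tm1307) and the nuclear hormone receptor mutant nhr-178(gk1005). From the L1 stage each genotype was fed HT115 bacteria on NGM plates that held either DMSO, the solvent control, or 0.3 µM antimycin A, which blocks complex III. Every group shared the HT115 diet, the solvent, an 18 hour L1 arrest after bleaching and an earlier life on OP50 bacteria. A sample pooled at least 1000 animals and all of their tissues, with the germline included, and each of the 6 groups had 3 libraries, described as biological triplicates. Beyond that word nothing says that they came from separate cultures, and the p-values therefore cover only the scatter among the libraries at hand.

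Complex I takes electrons from NADH and complex II takes them from succinate; both pass them to ubiquinone. Complex III hands them on to cytochrome c, and complex IV transfers them to oxygen. Complexes I, III and IV pump protons out of the matrix, and complex V, the ATP synthase, uses their return to make ATP. Antimycin stops the chain at complex III, between the complexes described here. In C. elegans several subunits have a pair of genes, and asb-1 is known as the germline form of the ATP synthase b subunit.

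Libraries held 1772887 to 9488037 counts, the shallowest being replicate 2 of the antimycin-treated nhr-45 strain, and the 58 genes took 1.15% to 1.51% of a library. Replicate 1 of WT with antimycin came next, with 3143437 counts. The mutated genes did not check the labels: in DMSO the nhr-45 transcript stood at 5.88 ± 1.195 CPM (counts relative to library size, TMM-scaled; SD, n = 3) in WT and at 4.29 ± 1.34 CPM in its own mutant (edgeR, adjusted p = 0.637), and nhr-178 had 2 to 22 counts in any group. Which part of each gene the alleles remove is not given in the sources used here. Transcripts of sperm, oocytes, germline, muscle and cuticle moved between groups, and their values are given with each kind of comparison.

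Transcript levels per length spanned a wide range within each complex. As a mean over the 18 libraries, the ATP synthase gene atp-5 (subunit d) had the highest level, 1714 CPM per kilobase of its longest annotated transcript. The cytochrome c oxidase genes cox-6C and cox-4 came next at 1446 and 1242 CPM per kilobase, and the complex V genes atp-3 (OSCP, the stalk protein) and atp-4 (F6) had 921 and 911. Among the 4 complex II genes, sdhd-1, for a membrane anchor, led at 838 CPM per kilobase. The iron-sulfur subunit gene sdhb-1 had 199, and the flavoprotein genes sdha-2 and sdha-1 had 20.0 and 19.1. Complex I ran from 31.5 CPM per kilobase in nuo-5, a core subunit, to 645 in ndub-5, an accessory subunit of the membrane arm. Within complex IV the 7 structural subunits stood above the 8 assembly factors, from cox-5B at 199 CPM per kilobase upward against cox-14 at 93.4 and downward. At the bottom, cox-10 and cox-16 had 59 and 18 counts over all libraries, did not pass the filter on low counts, and were not tested, which left 56 genes.

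**Figure D1:**
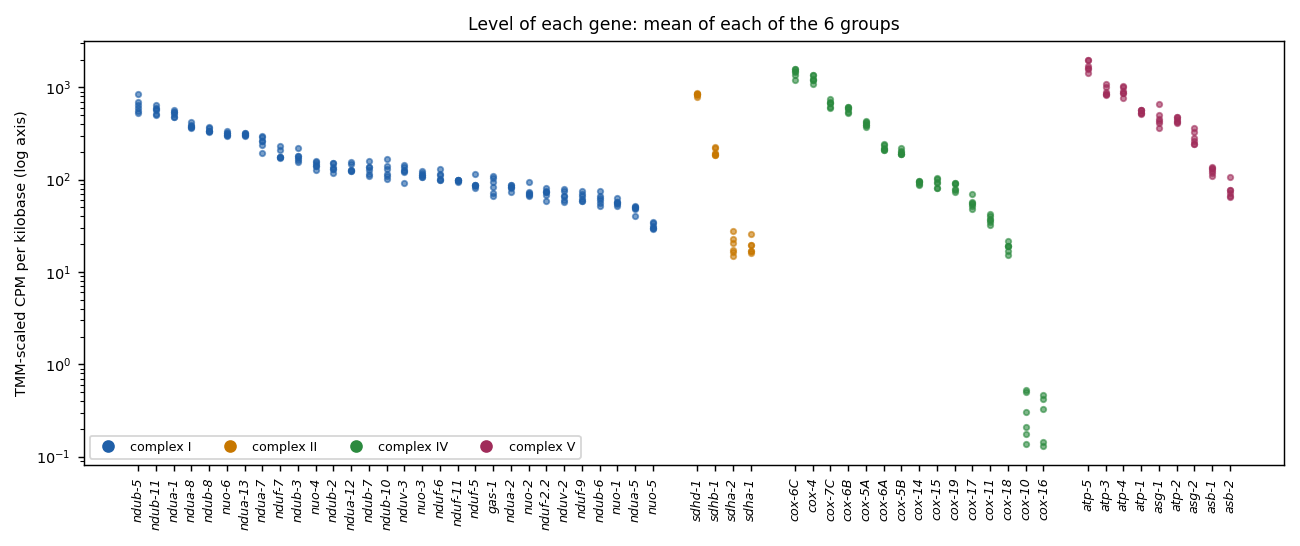
Level of each of the 58 genes on a log axis, in TMM-scaled CPM per kilobase of longest transcript, ordered within each complex by the mean over all libraries. Each point is the mean of 1 of the 6 groups (n = 3); cox-16 in nhr-45 with antimycin had 0 counts and has no point, and the groups of a gene lie close together beside the span from 0.249 to 1714 between genes.

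Antimycin changed few of these transcripts. In WT, asg-1 and nduv-3 rose and none fell, 2 of 56 genes, with 15 at an unadjusted p under 0.05. Over all 10981 genes tested, 3.01% were called in WT, 2.07% higher and 0.938% lower, so a share of 3.57% among the 56 was near the background. In nhr-45, 8 of the 56 rose and 1 fell, or 14.3% and 1.79%, against a background of 15.2% higher and 8.33% lower, 23.5% in all. That count was 4 to 8 when 1 of the 6 nhr-45 libraries was left out, with 4 without antimycin replicate 1 and 5 without antimycin replicate 3 or DMSO replicate 1. In nhr-178 no gene was called by edgeR or DESeq2 (0 of 56), with 3 at an unadjusted p under 0.05 in edgeR, where 2.70% of all genes were called.

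The direction of the small changes was uneven. Positive fold changes, called or not, were found for 41 of 56 genes in WT (73.2%, against 51.01% of all genes), for 47 in nhr-45 (83.9% against 50.2%) and for 35 in nhr-178 (62.5% against 49.6%). The median log2 fold change of the 56 was 0.14 in WT, 0.17 in nhr-45 and 0.03 in nhr-178, beside medians of all genes between 0.00 and 0.01 in WT and nhr-45. The groups did not overlap, higher in antimycin, for 16 genes in WT and 13 in nhr-45, where 10.7% and 21.1% of all genes did so, and lower for 2 and 1, where 9.39% and 14.9% did. In nhr-178 they were separate for 3 genes higher and 3 lower, where 1099 and 899 of the 10981 genes were. The standard error had a median of 0.15 to 0.16 on the log2 scale, and the 95% interval lay within a 2-fold change either way for 54, 54 and 56 of the 56 genes.

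**Figure D2:**
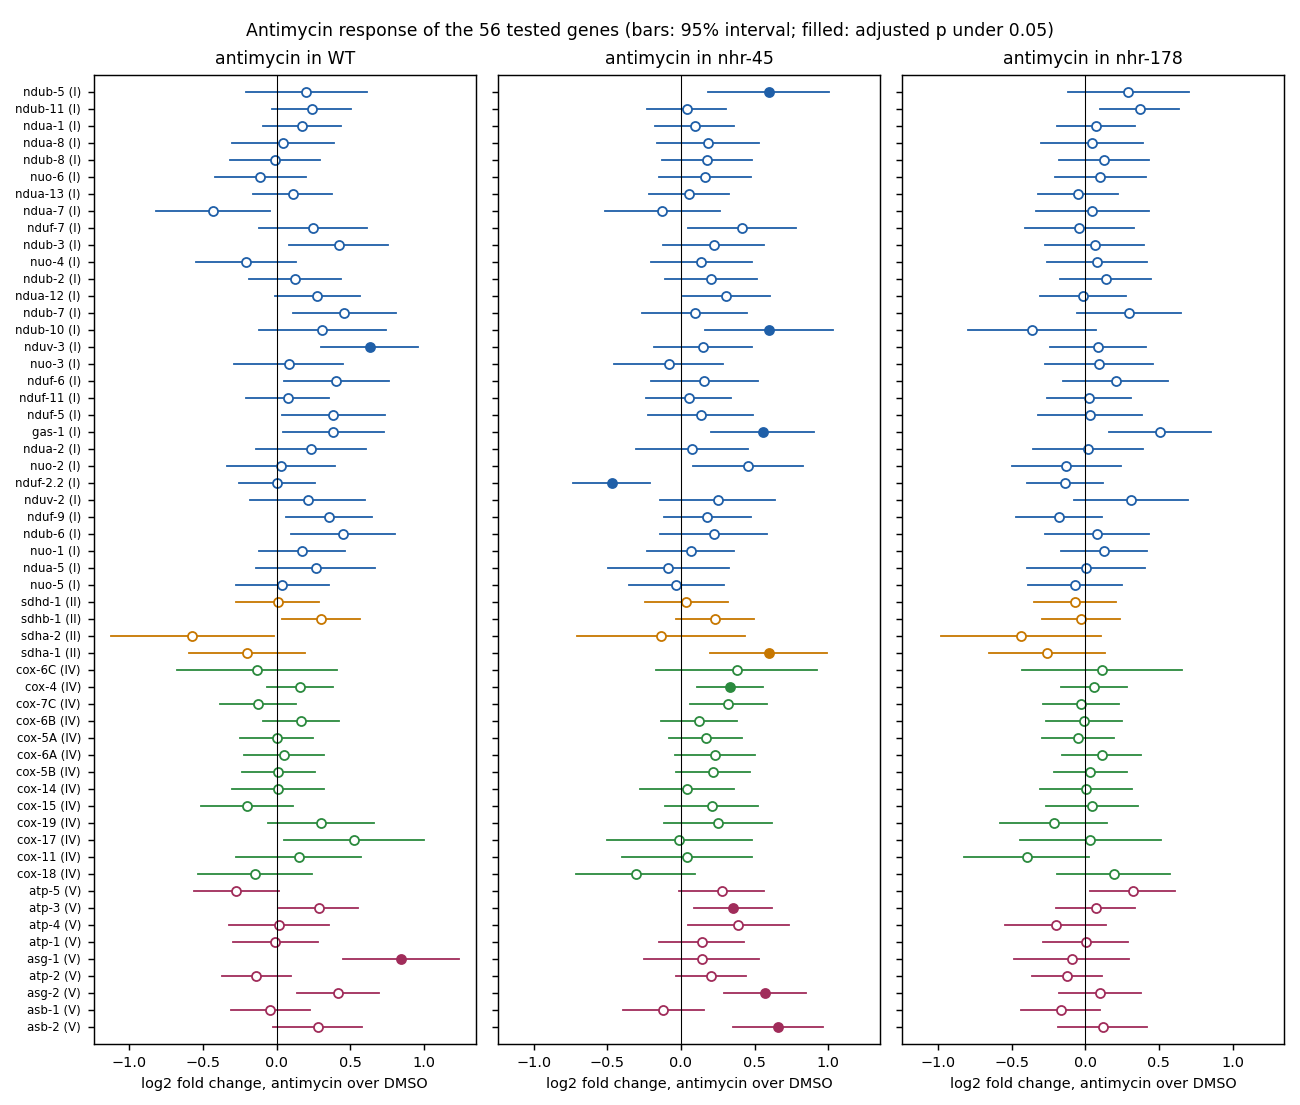
Antimycin response of the 56 tested genes in each genotype, as log2 fold change of antimycin over DMSO with its 95% interval (n = 3 in each group), coloured by complex and ordered by level within it; filled points passed an adjusted p of 0.05. The points lie mostly to the right of 0 in WT and nhr-45, and 2, 9 and 0 of them are filled.

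Complex I gave the most one-sided pattern in WT. Of its 30 genes 26 had a positive fold change, with a median log2 of 0.20. All 7 genes for core subunits were among them, at 0.00 to 0.38, with 1 of these at an unadjusted p under 0.05. Of the 30, 1 gene passed the test. The accessory subunit gene nduv-3 stood at 33.6, 29.7 and 33.1 CPM in the WT DMSO libraries and then at 53.3, 52.5 and 44.1 CPM with antimycin. The gene lies at IV:2641310-2642113 in the WBcel235 annotation. All 3 treated libraries lay above all 3 controls, and the change was 0.63 ± 0.16 (log2 fold change ± SE, adjusted p = 0.0274). In the mutants nduv-3 was at 38.6 CPM or more in every DMSO library. Its log2 difference from WT in DMSO was 0.42 in nhr-45 and 0.38 in nhr-178, and neither was called. The antimycin change of nduv-3 was 0.15 ± 0.16 in nhr-45 (adjusted p = 0.542) and 0.09 ± 0.16 in nhr-178 (adjusted p = 0.895). These responses were not shown to differ from that of WT, with interaction terms of -0.48 (adjusted p = 0.245) and -0.54 (adjusted p = 0.538). The call in WT rested on the libraries used: 0 to 2 of the 56 genes were called when 1 of the 6 libraries was left out.

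Several accessory subunits had separate groups in WT and did not pass the test. Some of them are named here, after their values were seen. The membrane arm gene ndub-7 went from 66.3, 49.6 and 56.5 CPM to 71.9, 80.2 and 84.3 CPM (0.46 ± 0.17, adjusted p = 0.175). For ndub-6 the libraries held 41.6, 40.1 and 44.3 CPM and then 62.1, 56.02 and 54.2 CPM (0.45 ± 0.17, adjusted p = 0.196), and for nduf-9 80.6, 80.5 and 93.8 CPM and then 102, 112 and 112 CPM (0.35 ± 0.14, adjusted p = 0.221). The lowest complex I estimate in WT was that of ndua-7, at 122, 141 and 201 CPM in DMSO and 90.1, 116.1 and 136 CPM with antimycin, where the groups overlapped (-0.43 ± 0.19, adjusted p = 0.281). The accessory gene nuo-4 was separate and lower, at 245, 277 and 269 CPM and then 237, 236 and 212 CPM (-0.21 ± 0.17, adjusted p = 0.625). In nhr-178 the accessory gene ndub-11 stood at 345, 343 and 403 CPM in DMSO and 462, 437 and 511 CPM in antimycin, separate and not called (0.37 ± 0.13, adjusted p = 0.169).

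In nhr-45, 3 complex I genes rose and 1 fell. The accessory subunit ndub-5 stood at 359, 445 and 587 CPM in DMSO and 673, 489 and 932 CPM in antimycin; the groups overlapped, and the change was 0.59 ± 0.20 (adjusted p = 0.0321). Its sister of the same membrane arm, ndub-10, was at 105, 126 and 75.2 CPM and then at 151, 147 and 167 CPM, with no overlap and a change of 0.60 ± 0.21 (adjusted p = 0.0420). Under 13 alternative settings the call was kept in 8 for ndub-5 and in 7 for ndub-10. The core subunit nuo-2 had a similar estimate, 0.46 ± 0.18, that did not pass (adjusted p = 0.0684), and 1 library, the shallow replicate 2 at 122 CPM, stood above the other antimycin libraries at 66.4 and 74.1 CPM. The range over all 30 genes was -0.47 to 0.60, and the median 0.15.

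The fall and 1 of the rises belonged to the genes for a single core subunit of complex I. It is encoded by gas-1, known from mutants that are hypersensitive to volatile anaesthetics, and by nduf-2.2. In nhr-45, gas-1 stood at 92.4, 119 and 148 CPM in DMSO and then at 179.6, 151 and 192 CPM with antimycin, while nduf-2.2 stood at 119.8, 130.2 and 114 CPM and then at 85.4, 97.9 and 81.3 CPM. Neither gene had overlapping groups; gas-1 rose by 0.55 ± 0.17 (adjusted p = 0.0187) and nduf-2.2 fell by 0.47 ± 0.13 on the log2 scale (adjusted p = 0.00845). In WT, gas-1 was at 141, 126 and 155 CPM and then 184, 148 and 219 CPM, with overlap (0.38 ± 0.17, adjusted p = 0.277), and nduf-2.2 was at 107, 115.8 and 107 CPM and then 106, 115 and 109 CPM (0.00 ± 0.13, adjusted p = 0.996). In nhr-178, gas-1 had the lowest p of the 56, at 131, 112 and 94.3 CPM in DMSO and 139, 170.0 and 169 CPM in antimycin (0.51 ± 0.17, adjusted p = 0.133). The opposite movement in nhr-45 was not shown to differ from WT: the interaction was 0.17 ± 0.24 for gas-1 (adjusted p = 0.762) and -0.47 ± 0.18 for nduf-2.2 (adjusted p = 0.133).

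In complex II, 1 of 4 genes rose with antimycin in nhr-45, and none was called in WT or nhr-178 (edgeR, 0 of 4 in each, with 2 and 0 at an unadjusted p under 0.05). The flavoprotein subunit, which binds succinate, is encoded by sdha-1 and sdha-2. For sdha-1 the nhr-45 libraries held 48.7, 41.6 and 31.2 CPM in DMSO and 76.4, 58.1 and 49.1 CPM in antimycin, just without overlap, and the change was 0.59 ± 0.19 (adjusted p = 0.0254). In WT it went from 40.8, 46.4 and 53.9 CPM to 36.1, 44.4 and 41.5 CPM (-0.20 ± 0.19, adjusted p = 0.692), and in nhr-178 from 57.3, 39.9 and 42.7 CPM to 38.8, 36.7 and 40.8 CPM (-0.26 ± 0.19, adjusted p = 0.661). The interaction of nhr-45 with antimycin was 0.80 ± 0.27, the largest of the 56 in that comparison, and missed the threshold (adjusted p = 0.0920, 95% interval 0.24 to 1.35). Its partner sdha-2 had the highest coefficient of variation of the 56 in nhr-45 DMSO, 46.8%, at 50.5, 36.2 and 17.9 CPM in nhr-45 DMSO and 32.2, 46.8 and 21.4 CPM in antimycin, with a change of -0.14 ± 0.28 (adjusted p = 0.760). The sdhd-1 and sdhb-1 genes gave 0.03 ± 0.14 and 0.23 ± 0.13 in nhr-45 and neither was called in any genotype.

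Complex IV showed 1 call among its 13 tested genes. In nhr-45, cox-4, a structural subunit, stood at 842, 883 and 1051 CPM in DMSO and 1133, 1108 and 1254 CPM in antimycin, without overlap, and rose by 0.33 ± 0.11 (adjusted p = 0.0288), a call kept in 7 of 13 alternatives. The WT libraries lay at 1149, 983 and 990.0 CPM and then 1202, 1142 and 1143 CPM, and the change of 0.16 ± 0.11 did not pass (adjusted p = 0.553). All 7 structural subunits had positive estimates in nhr-45, from 0.12 to 0.38, with 2 at an unadjusted p under 0.05. The 6 tested assembly factors ran from -0.31 to 0.25 with none called (edgeR, 0 of 6, and 0 at an unadjusted p under 0.05). The most abundant of the complex per length, cox-6C, spread from 273 to 837 CPM over the 6 nhr-45 libraries and its change was 0.38 ± 0.27 (adjusted p = 0.319). The structural subunit gene cox-7C, named after its values were seen, was at 195, 266.0 and 229 CPM in nhr-45 DMSO and 287, 309 and 266.4 CPM in antimycin, barely separate and not called (0.32 ± 0.13, adjusted p = 0.0676). In WT the 13 genes had a median of 0.01.

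Complex V held the remaining calls. The g subunit of the membrane part is encoded by asg-1 and asg-2. With antimycin in WT, asg-1 went from 176, 182 and 160.1 CPM to 385, 280.3 and 266 CPM, a 1.79-fold rise without overlap (0.84 ± 0.19, adjusted p = 0.0103), the largest change of the 56 genes in that comparison. Replicate 1 was the highest of the treated libraries and also the shallow one; without it the call was lost (adjusted p = 0.0718), as it was without WT DMSO replicate 3 (adjusted p = 0.0555). In nhr-45, asg-1 had its highest library at 295 CPM in DMSO and at 327 CPM in antimycin, with wide overlap (0.14 ± 0.19, adjusted p = 0.633). In nhr-178 the antimycin libraries, at 190.3, 201 and 190.1 CPM, lay among or below the DMSO libraries at 224, 193 and 204 CPM (-0.09 ± 0.19, adjusted p = 0.913). The interaction terms were -0.70 ± 0.27 in nhr-45 (adjusted p = 0.138) and -0.94 ± 0.27 in nhr-178 (adjusted p = 0.187, 95% interval -1.49 to -0.38).

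Its pair asg-2 was called in nhr-45 and not in WT. In nhr-45 it stood at 97.9, 139 and 124 CPM in DMSO and then at 193, 175 and 167 CPM with antimycin, without overlap, and rose by 0.57 ± 0.14 (adjusted p = 0.00336). In WT the same gene went from 126, 115.6 and 123 CPM to 177, 169 and 142.2 CPM, also without overlap, with a change of 0.42 ± 0.14 that missed the threshold (adjusted p = 0.104). In nhr-178 it was at 125, 140.0 and 126 CPM and then 144, 144 and 131 CPM (0.10 ± 0.14, adjusted p = 0.844). The interaction of nhr-45 with antimycin for asg-2 was 0.15 and was not called (95% interval -0.24 to 0.55).

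The b subunit of the stator has the genes asb-1 and asb-2. In nhr-45, asb-2 stood at 73.1, 77.99 and 87.6 CPM in DMSO and 126, 137 and 115.8 CPM in antimycin. This 1.58-fold rise had the smallest adjusted p of the 56 genes in that comparison (0.66 ± 0.15, adjusted p = 0.00187). The germline form asb-1 went from 121, 127 and 119 CPM to 108, 109 and 121 CPM, with overlap (-0.12 ± 0.13, adjusted p = 0.549). In WT the treated libraries of asb-2 all stood above the controls, 92.1, 85.5 and 97.97 CPM against 81.2, 72.6 and 73.8 CPM, and was not called (0.28 ± 0.15, adjusted p = 0.402). The catalytic head is built from the alpha and beta subunits of atp-1 and atp-2, and neither was called in any comparison. In nhr-45, atp-1 was at 1351, 929.6 and 855 CPM in DMSO and 1234, 1111 and 1109.9 CPM in antimycin (0.14 ± 0.14, adjusted p = 0.504), and atp-2 at 853, 825 and 744 CPM and then 1038, 899 and 849 CPM (0.20 ± 0.12, adjusted p = 0.212), both with overlap. The stalk gene atp-3 was at 713, 782 and 936 CPM in nhr-45 DMSO and 1246, 909 and 945 CPM in antimycin, with overlap, and passed narrowly (0.35 ± 0.13, adjusted p = 0.0487), in 7 of 13 alternatives as well. The most abundant, atp-5, went from 996, 1261 and 1119 CPM to 1368, 1421 and 1303 CPM in nhr-45, without overlap and without a call (0.28 ± 0.14, adjusted p = 0.157). In WT its change was -0.27 ± 0.14 (adjusted p = 0.375), and the interaction of 0.55 ± 0.20 was not called (adjusted p = 0.114).

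The 4 genes that rose within a gene pair in nhr-45, gas-1, sdha-1, asb-2 and asg-2, are the only 4 of the 58 that lie on the X chromosome, a feature that the choice by name did not use and that was noticed after the values were seen. In the WBcel235 annotation gas-1 is at X:15586786-15590397, sdha-1 at X:8542757-8546021, asb-2 at X:4469766-4471476 and asg-2 at X:6841258-6842121. Their partners are autosomal: nduf-2.2 at III:6465222-6467206, sdha-2 at I:10683270-10685587, asb-1 at III:4594543-4595821 and asg-1 at I:8692946-8693468. Of the 52 autosomal genes tested, 4 rose and 1 fell. In the same comparison 23.1% of the 1587 X-linked genes tested were called higher, with a median log2 fold change of 0.31, against 13.9% and -0.03 for 9379 autosomal genes; 5.92% and 8.75% were called lower. In WT the X-linked and autosomal medians were 0.03 and 0.01, and 0 of the 4 X-linked members were called (edgeR, 2 of them at an unadjusted p under 0.05), where 1.95% of X-linked genes were higher.

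**Figure D3:**
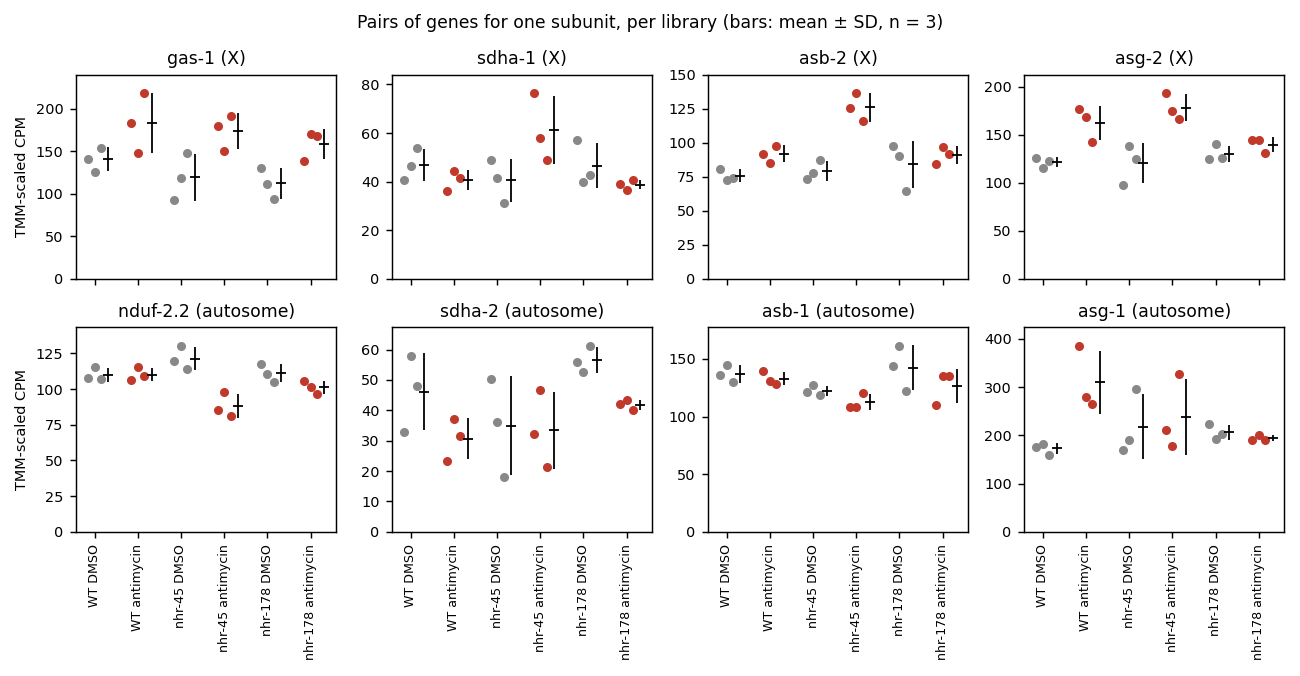
Levels of the 4 X-linked genes (top) and their autosomal partners (bottom), in TMM-scaled CPM; each point is a library, and bars give the mean ± SD (n = 3). In nhr-45 the 3 antimycin libraries of all 4 X-linked genes stand above the 3 DMSO libraries, and those of nduf-2.2 stand below.

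Within each library, the ratio of the X-linked to the autosomal gene of a pair removes the scaling between libraries. In nhr-45 the mean log2 ratio went from -0.04 to 0.98 for gas-1 over nduf-2.2 and from -0.62 to 0.16 for asb-2 over asb-1, both without overlap. It went from 0.32 to 0.92 for sdha-1 over sdha-2 and from -0.83 to -0.37 for asg-2 over asg-1, both with overlap. The asb ratio also moved without overlap in WT, from -0.85 to -0.54, and in nhr-178, from -0.77 to -0.47, and the gas-1 ratio in nhr-178 from 0.00 to 0.65. In WT the asg ratio moved the other way, from -0.51 to -0.92, without overlap. The gas-1 and sdha-1 ratios in WT went from 0.35 to 0.72 and from 0.06 to 0.43, both with overlap. In nhr-178 the sdha-1 and asg-2 ratios went from -0.30 to -0.11 and from -0.67 to -0.47, also with overlap. The smallest p that 3 against 3 libraries allow is 0.1 in a two-sided exact permutation test, and after adjustment over the 28 ratio comparisons none was below 0.28. The counting rule for reads that match both genes of a pair is not given in the sources used here, so the split within a pair is uncertain.

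**Figure D4:**
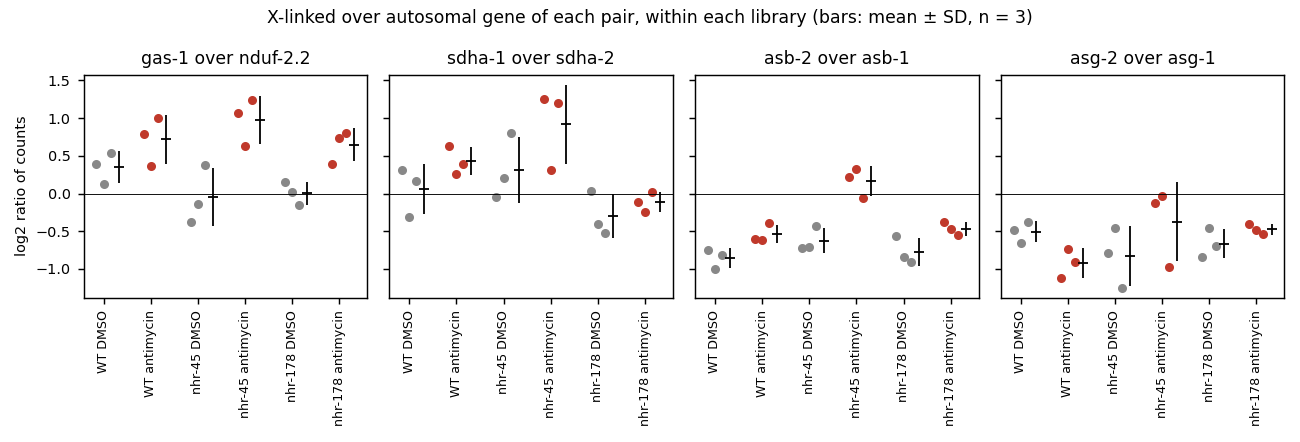
Log2 ratio of the X-linked over the autosomal gene of each pair within a library, by group; each point is a library and bars give the mean ± SD (n = 3). In nhr-45 and in nhr-178 the mean of all 4 ratios is higher in antimycin, and in both the gas-1 and asb-2 ratios are separate. In WT the asg-2 ratio is lower in antimycin and the others are higher.

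Markers of several tissues moved in the same libraries. With antimycin in nhr-45, 27 of 28 tested sperm genes rose, with a summed level of 97.1 to 150 CPM in the DMSO libraries and 714 to 878 CPM in the antimycin libraries. Among oocyte and eggshell genes 17 of 19 fell, with sums of 15280 to 16759 CPM in DMSO and 9945 to 11280 CPM in antimycin. Germline genes fell in 7 of 17 cases, with sums of 3919 to 4728 CPM and 3199 to 3316 CPM. Muscle genes rose in 6 of 19 cases, hypodermis genes in 6 of 8, and intestine genes in 5 of 13 with 2 falling. Over all genes tested, 15.2% were called higher and 8.33% lower in the same comparison. Of all 37 listed sperm genes 1 was at 0 in every library. The part of these tissues in the results for the respiratory genes was not tested. Whether the groups differed in developmental stage was not tested. In RNA from whole animals, fewer cells of a type and less RNA per cell cannot be told apart.

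With antimycin in WT no sperm gene was called (edgeR, 0 of 28, with 6 at an unadjusted p under 0.05), oocyte genes 1 lower, germline genes 1 lower, muscle genes 2 higher, hypodermis genes 2 higher and 1 lower, and intestine genes 2 higher and 1 lower. The summed oocyte level ran from 15326 to 18668 CPM in DMSO and from 13406 to 14100 CPM in antimycin, without overlap. In nhr-178, 2 sperm genes rose, 4 intestine genes rose and 1 fell, and 1 hypodermis gene fell. Over all genes tested, 2.07% were called higher and 0.938% lower in WT, and 2.05% and 0.656% in nhr-178.

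Without antimycin, no gene of the 56 was called between a mutant and WT. By edgeR, 0 of 56 passed in either mutant, with 2 in each at an unadjusted p under 0.05, and DESeq2 called 0 in each; 1.54% of all genes were called in nhr-45 and 1.15% in nhr-178. The lowest p in nhr-45 belonged to atp-5, at 1493, 1502 and 1696 CPM in WT and 996, 1261 and 1119 CPM in nhr-45, without overlap (-0.47 ± 0.14, adjusted p = 0.103). In nhr-178 atp-5 was at 1247, 1366 and 1103 CPM, also below all WT libraries (-0.34 ± 0.14, adjusted p = 0.375). The 95% intervals of all 56 genes lay within a 2-fold change in both mutants, and within a 1.5-fold change for 47 genes in nhr-45 and 45 in nhr-178.

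Tissue markers differed between the strains in DMSO as well. In nhr-45, 9 of 28 sperm genes were higher than in WT, with sums of 97.1 to 150 CPM against 17.4 to 34.6 CPM, and 2 of 8 hypodermis genes were higher and 1 lower. No oocyte, germline, muscle or intestine gene was called there (edgeR, with 2, 0, 6 and 2 at an unadjusted p under 0.05). In nhr-178, 6 sperm genes, 3 of 19 muscle genes, 1 oocyte gene and 1 hypodermis gene were lower and 1 intestine gene was higher, with sperm sums of 0.868 to 7.88 CPM. Over all genes tested, 0.719% were called higher and 0.820% lower in nhr-45, and 0.173% and 0.974% in nhr-178. The part of the tissue markers in the values of the respiratory genes was not tested.

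With antimycin, 2 genes were higher in nhr-45 than in WT, and 1 was lower in nhr-178. In nhr-45 these were sdha-1 (0.59 ± 0.19, adjusted p = 0.0375) and asb-2 (0.45 ± 0.15, adjusted p = 0.0386), whose libraries given above do not overlap those of WT. Over all genes 15.1% were called, 10.7% higher and 4.37% lower, in that comparison, so 2 of 56 was below the background. In nhr-178 the gene was asg-1 (-0.68 ± 0.19, adjusted p = 0.0414), with 1.12% of all genes higher and 2.51% lower, 3.63% in all. Leaving out WT antimycin replicate 1 took these 3 calls away, and other single libraries did so too. These comparisons share the WT antimycin libraries. In nhr-45 against WT in antimycin, 28 of 28 sperm genes, 5 of 19 muscle genes, 6 of 8 hypodermis genes and 2 of 13 intestine genes were higher, and 9 of 19 oocyte genes, 3 of 17 germline genes, 1 muscle gene and 1 intestine gene were lower. In nhr-178, 6 sperm genes, 5 muscle genes, 1 hypodermis gene and 1 intestine gene were lower, and 2 oocyte genes and 2 intestine genes higher. The summed sperm level with antimycin was 44.8 to 66.7 CPM in WT and 11.155 to 23.9 CPM in nhr-178. The part of these markers in the 3 calls was not tested.

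No antimycin response of the 56 genes was shown to differ between a mutant and WT. By edgeR and DESeq2 alike 0 of 56 interaction terms were called in each mutant, with 7 at an unadjusted p under 0.05 for nhr-45 and 6 for nhr-178 in edgeR. Over all genes 4.68% were called for nhr-45 and 0.264% for nhr-178. The median standard error was 0.22 on the log2 scale, and the interval lay within a 1.5-fold difference for 21 genes for the nhr-45 term and 22 for the nhr-178 term, and reached beyond it for the others.

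Summed by complex, transcript levels shifted most in nhr-45. The 58 genes together held 12266 ± 594 CPM in nhr-45 DMSO and 14447 ± 567 CPM in antimycin, 17.8% more and without overlap. In WT they held 13213 ± 405 and 13730 ± 565 CPM, 3.91% more, with overlap, and in nhr-178 13163 ± 235.04 and 13710 ± 189 CPM, 4.16% more, without overlap. Such sums weigh the most abundant genes most. In nhr-178 the mean of atp-5 alone went from 1239 to 1547.5 CPM. In nhr-45 the means of cox-4 and cox-6C went from 925 to 1165 CPM and from 484 to 628 CPM. With 3 against 3 libraries an exact permutation test cannot give a p below 0.1, and no test of the sums is given. The nhr-45 increase was 15.4% for complex I, 20.5% for complex IV and 19.7% for complex V, each without overlap, and 8.27% for complex II, with overlap. The complex I sum was also higher with antimycin in nhr-178, by 8.102% without overlap, and in WT by 9.83% with overlap. Complex II, IV and V sums overlapped in WT and in nhr-178. The sum of the 9 complex V genes in nhr-45 DMSO, at 4742 ± 147 CPM, was 11.1% below WT at 5335 ± 223 CPM, without overlap. In antimycin this sum stood at 5677 ± 366 CPM beside 5343 ± 387 CPM in WT. Of the 9 genes in DMSO, 6 had a negative fold change, 3 a positive one, and none was called. The mean of atp-5 was 1563.5 CPM in WT DMSO and 1125 CPM in nhr-45 DMSO. The 8 further ATP synthase genes listed below, outside this sum, held 15379 to 18157 CPM in WT DMSO and 16263 to 18180 CPM in nhr-45 DMSO. The sperm and hypodermis markers given above also differed between these DMSO groups. The DMSO sum of complex I was 3973 ± 391 CPM in nhr-45 and 4035 ± 179 CPM in WT, with overlap.

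**Figure D5:**
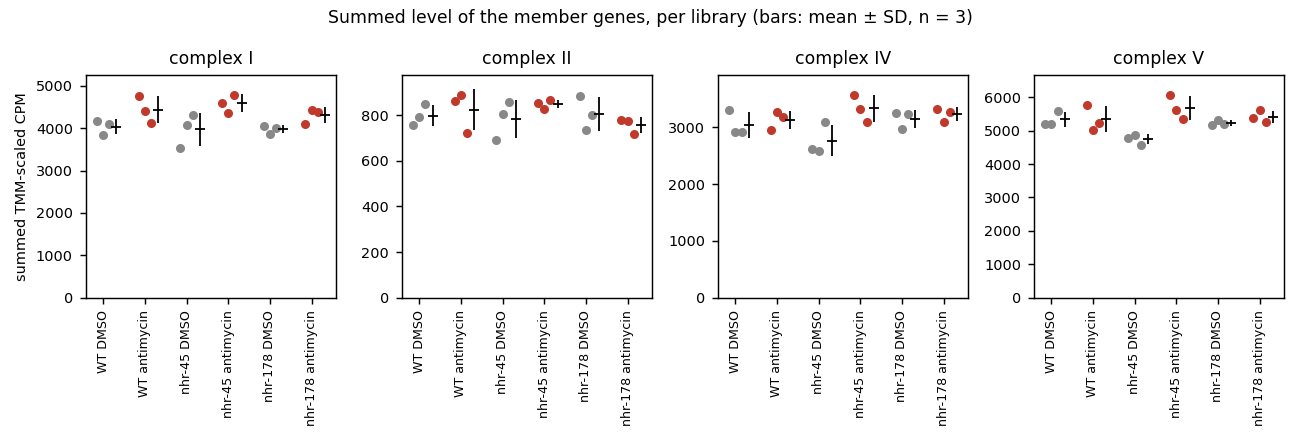
Summed level of the genes of each complex in TMM-scaled CPM; each point is a library and bars give the mean ± SD (n = 3). In nhr-45 the antimycin libraries stand above the DMSO libraries for complexes I, IV and V. The sum of the 9 complex V genes in nhr-45 DMSO lies below all WT libraries.

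Genes of the neighbouring steps were read from separate lists. Among 12 tested genes of complex III, the target of antimycin, and cytochrome c, 7 rose with antimycin in nhr-45 with a median log2 of 0.37. By edgeR 0 rose in WT and 0 in nhr-178, where 3 and 1 had an unadjusted p under 0.05. Of all genes, 15.2% were called higher in nhr-45, 2.07% in WT and 2.05% in nhr-178. The core protein gene ucr-2.1 went from a mean of 39.6 to 76.1 CPM in nhr-45 (0.93 ± 0.16, adjusted p = 8.0e-05), and its interaction with nhr-45 was called (0.76 ± 0.22, adjusted p = 0.0464). No other of the 12 genes was shown to respond differently in nhr-45 than in WT. Among 8 further ATP synthase genes, 1 rose in nhr-45: mai-1, an inhibitor of the enzyme's hydrolytic action, from 43.7 to 75.6 CPM (0.80 ± 0.18, adjusted p = 0.00154, interaction 0.86 ± 0.25, adjusted p = 0.0424).

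None of 3 further complex I genes, 4 complex I assembly genes or 9 further complex IV and assembly genes was called with antimycin in nhr-45 by edgeR (0 at an unadjusted p under 0.05 in each list). These lists held 21, 6 and 15 names, of which 4, 4 and 9 matched a counted gene. They were therefore not shown to cover the rest of these complexes. In the citric acid cycle, which supplies NADH and succinate, 1 of 17 genes rose in WT and in nhr-45. It was citrate synthase, cts-1, from 564 to 754 CPM in WT (0.42 ± 0.10, adjusted p = 0.0201) and from 551 to 783 CPM in nhr-45 (0.51 ± 0.10, adjusted p = 6.3e-04). Over all genes tested, 2.07% were called higher and 0.938% lower in WT, and 15.2% and 8.33% in nhr-45. In nhr-45, 1 of 17 was therefore below the background. A list of 16 tested genes held those for ubiquinone synthesis and for dehydrogenases outside the complexes, not all of them linked to quinone. From it gpdh-2, for a cytosolic glycerol phosphate dehydrogenase that uses NAD, fell by 0.61 ± 0.17 in WT (adjusted p = 0.0440), and sqrd-1, for a sulfide quinone oxidoreductase, rose by 1.85 ± 0.60 in nhr-45 (adjusted p = 0.0254).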

How the data were processed

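RNA of whole early adults was sequenced in 18 libraries, 3 in each of 6 groups. The values are whole-number counts per gene that the authors deposited. Bowtie2, RSEM, R 3.6.3 and DESeq2 are named in the submitters' processing notes, roles unstated. For build, annotation, strand use and multi-mapping the sources used here give nothing. The test was edgeR 4.0.16's quasi-likelihood F test (R 4.3.3) on all 18 libraries, with TMM scaling, filterByExpr by group and 1 mean per group (12 residual degrees of freedom, biological coefficient of variation 17.1%). It tested 10981 genes, and Benjamini-Hochberg adjusted p under 0.05 within each of 9 comparisons was called, two-sided. DESeq2 1.42.0 was an alternative. An SE is the log2 fold change over the square root of F. Positions and lengths came from the WBcel235 annotation, which may differ from the authors' build. Exons of 14 members overlap another counted gene, among them nuo-3, cox-14, cox-16, gas-1 (26 bases) and asg-1 (18 bases), so their counts are less certain. Libraries of a group differed beyond sampling noise (chi-square over its degrees of freedom 5.83 to 19.5) and were all kept. Members and lists were chosen with earlier results of these data known. Named were the members called in any comparison, the most abundant of each complex, the 4 gene pairs, and up to 4 called genes of a list; nuo-2, sdhb-1, atp-1, atp-2 and the X-linked grouping were added after their values were seen. The steps were tested on simulated data.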

Additional observations from a re-analysis of the deposited data

How the results depend on the processing

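No change called above reversed its direction under any alternative. Changes that were not called are not covered by this. Called counts stood at 2 (antimycin in WT), 9 (in nhr-45), 0 (in nhr-178), 0 and 0 (nhr-45 and nhr-178 against WT in DMSO), 2 and 1 (the same in antimycin), and 0 and 0 (interactions of nhr-45 and nhr-178). Without the low-count filter they became 1 for antimycin in WT, 1 for antimycin in nhr-178 (gas-1), 1 for nhr-45 against WT in DMSO, 1 and 2 for nhr-45 and nhr-178 against WT in antimycin, and 1 for each interaction. With only the groups of the comparison in the fit they became 4 for antimycin in nhr-45, 2 for nhr-178 against WT in antimycin and 1 for the nhr-178 interaction. Without both shallow libraries they became 0 for antimycin in WT, 1 and 0 for nhr-45 and nhr-178 against WT in antimycin, and 1 for the nhr-45 interaction. The cause was not tested. The same replicate number did not pair samples (correlations from -0.098 to 0.107 over 21 pairs), and the replicate block gave 2, 9, 0, 0, 0, 2, 1, 0 and 0, in the order above.

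Leaving out each library gave 0 to 2 for antimycin in WT, 4 to 8 in nhr-45, 0 to 0 in nhr-178, 0 to 0 for either mutant in DMSO, 0 to 3 for nhr-45 and 0 to 1 for nhr-178 against WT in antimycin, and 0 to 1 and 0 to 0 for the interactions. Antimycin in WT fell to 0 without WT DMSO replicate 3 or WT antimycin replicate 1, and to 1 without WT DMSO replicate 1 or 2 or WT antimycin replicate 2. Antimycin in nhr-45 fell to 4 without nhr-45 antimycin replicate 1, and to 5 without nhr-45 antimycin replicate 3 or nhr-45 DMSO replicate 1. For nhr-45 against WT in antimycin it was 0 without any 1 WT antimycin library or nhr-45 antimycin replicate 1, and 1 without nhr-45 antimycin replicate 2. For nhr-178 it was 0 without WT antimycin replicate 1 or 2 or nhr-178 antimycin replicate 2 or 3. The nhr-45 interaction was 1 without WT antimycin replicate 1 or nhr-45 antimycin replicate 3. Of 13 alternatives, asb-2 and asg-2 kept their nhr-45 antimycin calls in 13, nduf-2.2 in 12, gas-1 and sdha-1 in 9, ndub-5 in 8 and atp-3, cox-4 and ndub-10 in 7; in WT, asg-1 kept it in 10 and nduv-3 in 6.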
